A study of Drosophila melanogaster with 2 samples.

Results

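The genes hth, exd, Dll, vg, sd, tsh, dac and pxb were examined for binding of pan, the fly TCF, in whole Drosophila melanogaster embryos. They are 8 of the 13968 protein-coding genes on the main chromosome arms. Each was given a territory, the gene body in Ensembl's annotation plus 2 kb either side, and peaks whose summit fell in it were taken. The 8 territories held 22 of the 6359 peaks in the authors' conservative pooled list, 14 of them at hth. That list holds peaks whose ranks were reproducible between replicates, by the irreproducible discovery rate (IDR, lower meaning more reproducible). Each replicate has a passing list by the same measure within itself, and a longer pooled list exists. Ranked lists hold the peaks that were ranked, before the threshold. Whether they hold every peak that was called is not known here. Signal is the authors' peak height value, on a scale the sources used here do not give. There was 1 group with 2 replicates: whole embryos aged 0 to 24 h of a transgenic strain expressing pan fused to eGFP, precipitated, per the labels' description, with an antibody against GFP. The antibody label itself reads pan, the fusion's target. The labels do not say how the fusion was driven, and they number the 2 libraries as biological replicates of 1 strain. Whole embryos pool many tissues and ages, so strong binding in few cells and weak binding in many cannot be told apart. A control is named in the labels. It was not used here, so whether a peak is specific to pan was not tested.

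As background, pan binds DNA and switches between repression and activation of Wingless (Wnt) targets according to whether Armadillo is present. Fly limbs form under Wingless and Decapentaplegic. Across a leg these signals divide the axis into a proximal part marked by the homeobox gene hth, an intermediate part marked by dac and a distal part marked by the homeobox gene Dll. Hth, the fly Meis protein, carries the Pbx protein Exd into the nucleus. The co-activator Vg and the TEAD protein Sd together specify wing identity, and the zinc finger protein Tsh specifies trunk and proximal identity. No role is given here for pxb.

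The sequences that bear on the study's factor come first. The TCF core was sought on both strands as CTTTG followed by 2 letters that are each A or T. It lay within 50 bp of 3 of the 22 summits (13.6%, exact 95% interval 2.91 to 34.9%) and within 100 bp of 6. Over all 6359 conservative summits the shares were 9.47% within 50 bp and 16.8% within 100 bp, so at 22 peaks the share within 50 bp did not stand outside its counting error. Each window below runs 100 bp either side of a summit on the plus strand of dm6, read from the RefSeq copy of that assembly, with the TCF core in capitals. All 6 summits with a core in this window are shown, 4 at hth and 2 at sd.
hth chr3R:10630081-10630281: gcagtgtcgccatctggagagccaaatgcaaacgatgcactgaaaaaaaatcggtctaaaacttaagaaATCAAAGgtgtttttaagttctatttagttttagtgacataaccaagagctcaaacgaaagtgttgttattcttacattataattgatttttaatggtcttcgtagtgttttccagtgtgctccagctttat
hth chr3R:10564334-10564534: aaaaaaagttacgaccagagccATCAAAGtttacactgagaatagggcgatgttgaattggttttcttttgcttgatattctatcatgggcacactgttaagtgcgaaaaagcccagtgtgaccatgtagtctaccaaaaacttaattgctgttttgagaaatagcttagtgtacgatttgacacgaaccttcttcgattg
hth chr3R:10537243-10537443: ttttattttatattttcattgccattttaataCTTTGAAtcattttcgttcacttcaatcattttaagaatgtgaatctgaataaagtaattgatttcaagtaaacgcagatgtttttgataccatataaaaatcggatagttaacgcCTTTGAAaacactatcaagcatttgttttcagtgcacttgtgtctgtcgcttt
hth chr3R:10535837-10536037: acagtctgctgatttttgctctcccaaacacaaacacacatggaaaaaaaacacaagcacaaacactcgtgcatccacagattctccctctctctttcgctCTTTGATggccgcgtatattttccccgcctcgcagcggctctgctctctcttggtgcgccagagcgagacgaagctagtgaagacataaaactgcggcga
sd chrX:15812240-15812440: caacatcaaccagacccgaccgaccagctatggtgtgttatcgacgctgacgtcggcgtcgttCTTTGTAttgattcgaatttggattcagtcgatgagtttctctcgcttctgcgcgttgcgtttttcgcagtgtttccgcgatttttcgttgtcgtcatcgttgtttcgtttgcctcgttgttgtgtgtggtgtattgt
sd chrX:15818692-15818892: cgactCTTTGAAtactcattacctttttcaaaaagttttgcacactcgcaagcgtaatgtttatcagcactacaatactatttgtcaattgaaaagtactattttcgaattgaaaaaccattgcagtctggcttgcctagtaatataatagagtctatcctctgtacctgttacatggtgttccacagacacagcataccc

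In the fourth window, at the distal end of the hth peaks, the core began next to the summit, with its centre 4 bp away. In the first it was 28 bp away and in the sd window at chrX:15812240-15812440 it was 34 bp away. These distances are from pooled summits. The 2 replicates placed the summit of the first window 95 bp apart and that of this sd window 69 bp apart. Both shifts exceed the stated distance to the core, so these 2 distances are loose. In the fourth window the replicate summits were 21 bp apart. The remaining cores lay 51 to 92 bp from their summits, and the window at chr3R:10537243-10537443 held 2 of them. The longer TCF form, with C or G on both sides of the core, was within 50 bp of 0 of the 22 summits and of 1.64% of all conservative summits. The helper site, GCCGCC followed by A or G, a second element that fly TCF can read, was within 50 bp of 0 of 22 and of 2.31% of all.

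Letters read by the Hth and Exd proteins were also sought on both strands. The Exd form TGATTNAT was within 50 bp of 2 hth summits, one being the strongest of the 22 peaks, and of 2.96% of all conservative summits. Both are shown because the same 8 letters, in capitals, stood at the same place, centred 16 bp before the summit on the plus strand. They were picked out after their values were seen. The Hth form TGACAG was within 50 bp of 0 of 22 summits and of 3.24% of all. The TEAD form GGAATG, read by Sd, was within 50 bp of 3 of 22 and of 3.21% of all. These 3 were 2 at hth and 1 at pxb, and they include both of the 22 peaks with a signal under 20. A match says that the letters are there, not that a protein binds.
hth chr3R:10597667-10597867: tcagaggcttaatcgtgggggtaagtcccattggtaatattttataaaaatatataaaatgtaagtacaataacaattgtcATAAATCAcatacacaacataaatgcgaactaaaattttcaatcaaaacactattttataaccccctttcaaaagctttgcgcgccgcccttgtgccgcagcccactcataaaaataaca
hth chr3R:10641324-10641524: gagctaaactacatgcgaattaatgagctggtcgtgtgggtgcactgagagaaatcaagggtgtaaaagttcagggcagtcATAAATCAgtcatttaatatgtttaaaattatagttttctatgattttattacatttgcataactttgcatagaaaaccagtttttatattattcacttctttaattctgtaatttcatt

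The homeobox gene hth had the most pan peaks of the 8 by count. Per length it had 10.3 conservative summits per 100 kb of territory, close to pxb with 10.6, while sd had 7.32, vg 5.21, dac 4.26 and Dll 4.02. It spans 132008 bp on the minus strand of 3R, from 10507561 to 10639568, and has an upstream start at 10639568, used by 1 annotated transcript, and a downstream start at 10614276, used by 4. Of the 14 summits, 7 fell in the 24.8 kb first intron of the transcript from the upstream start, and 1 lay 1856 bp upstream of that start, inside the antisense RNA gene asRNA:CR44018, whose end overlaps that of hth. The other 6 were in introns 1, 3, 6, 7 and 8 of the 14-exon transcript from the downstream start, with 2 in intron 8. None was in an annotated exon of hth. Of the 13 inside the gene, 9 lay before its midpoint and 4 after it, and the last 28376 bp before the 3′ end held none.

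**Figure D1:**
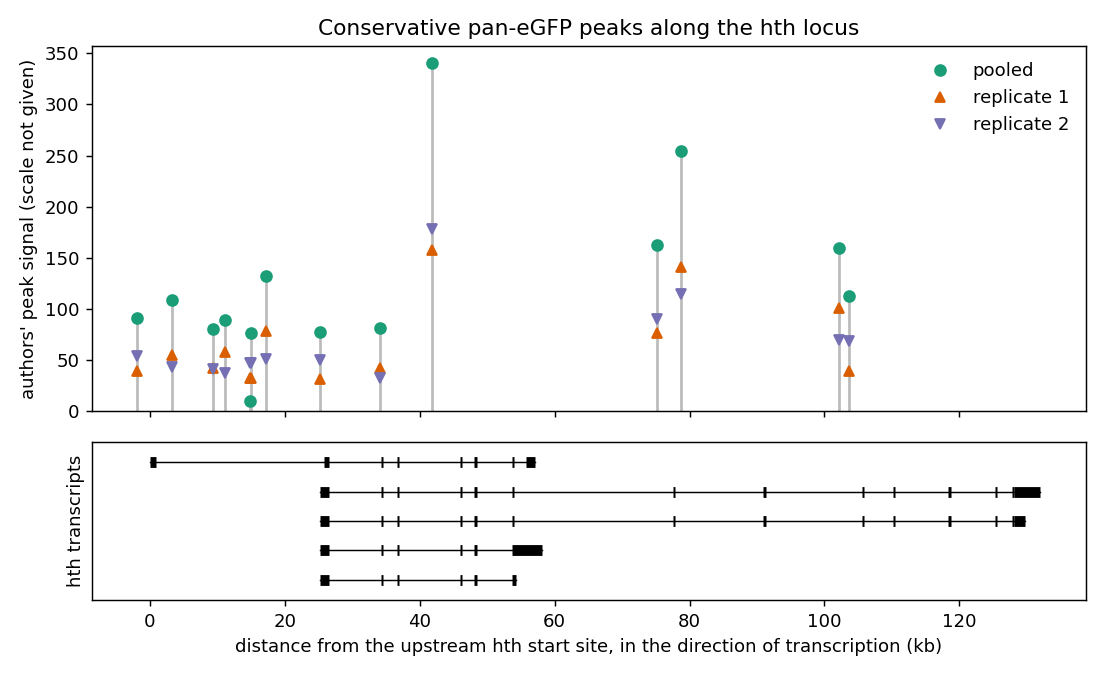
Authors' peak signal (vertical axis, scale not given) of the 14 conservative hth peaks by distance in kb from the upstream start, with the annotated transcripts below; circles are pooled values and triangles the overlapping peak in each replicate's ranked list. The strongest peak, at 340.1, stands 41.8 kb into the gene, and the pooled circle at 9.75 overlaps a neighbour of 76.9 and is drawn with that neighbour's replicate peaks.

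The strongest hth peak, at 3R 10597673 to 10597843 in intron 3, had a signal of 157.2 in replicate 1, 178.6 in replicate 2 and 340.1 pooled, which ranked 668 of 6359. The next, at 10560730 to 10560857 in intron 7, had 140.9, 115.0 and 254.2. Both replicates listed these sites above every other hth site, and both peaks were narrower than the 340 bp that 76.9% of conservative peaks share, at 171 and 128 bp. Over the whole list, narrower peaks had a median signal of 318.7 and peaks of 340 bp a median of 101.5.

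A second tier lay between 112.5 and 162.7. The peak with its summit at 10564434 in intron 6 had 76.4 and 90.3 in replicates 1 and 2, and that at 10537343 in intron 8 had 100.9 and 69.7. Its neighbour at 10535937, which carries the TCF core nearest to a summit, had 39.8 and 68.5 and passed in replicate 2 alone. In the first intron from the upstream start, the summit at 10622347 had 78.1 and 50.8, with a GC content of 62.4% within 50 bp of it, the highest among the hth peaks. Replicate 1 was higher at 2 of these 4 sites and replicate 2 at the other two.

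The remaining 8 hth peaks had pooled signals of 76.9 to 109.1, apart from the one of 9.75. The summit at the downstream start, 11 bp before it in the pooled list, was among the weaker ones, with 31.7 in replicate 1, 50.1 in replicate 2 and 77.8 pooled. The 2 replicates placed this summit 100 bp apart, so its distance to the start is loose. The site 3330 bp inside the upstream start had 55.0 and 43.2, and the site upstream of it had 39.2 and 54.4. Between the starts, the summit at 10630181, the first of the TCF windows, had 42.7 and 41.2 in replicates 1 and 2 and 80.55 pooled. The signals were nearly equal in both replicates, but their summits lay 95 bp apart. The summit at 10628453 had 58.3 and 37.2 (89.2 pooled) and was higher in replicate 1. Past the downstream start, the summit at 10605461 had 42.6 and 32.8 (81.2 pooled). The peak of 9.75, with its summit at 10624793, overlaps the peak of 76.9 with its summit at 10624594, and both meet the same replicate peaks of 32.5 and 47.2, so they are not independent sites. With overlapping peaks merged, hth held 13. Of the 14, 5 were in the passing lists of both replicates, 2 in that of replicate 1 alone, 3 in that of replicate 2 alone and 4 in neither. A further site at 10520722, past the last conservative summit, was in the longer list (72.1) and in the list of replicate 1 (63.2), with an IDR across replicates of 0.656. A site at 10544148 was in the list of replicate 2 alone (44.7).

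Far-off positions were common among the hth peaks. Of 14 summits, 8 lay over 10 kb from the start of any annotated gene, against 7.45% of all conservative summits (474 of 6359). The 8 include the overlapping pair with summits at 10624793 and 10624594, which are not independent sites and lay 10517 and 10318 bp from a start. The summits in introns 6 and 7 were 49842 and 47659 bp from any start and ranked 2 and 3 in distance among the 6359. These distances are not independent of the length of hth, and no test was made of the difference. The GC content around hth summits had a median of 29.2%, against 33.7% for all conservative summits.

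**Figure D2:**
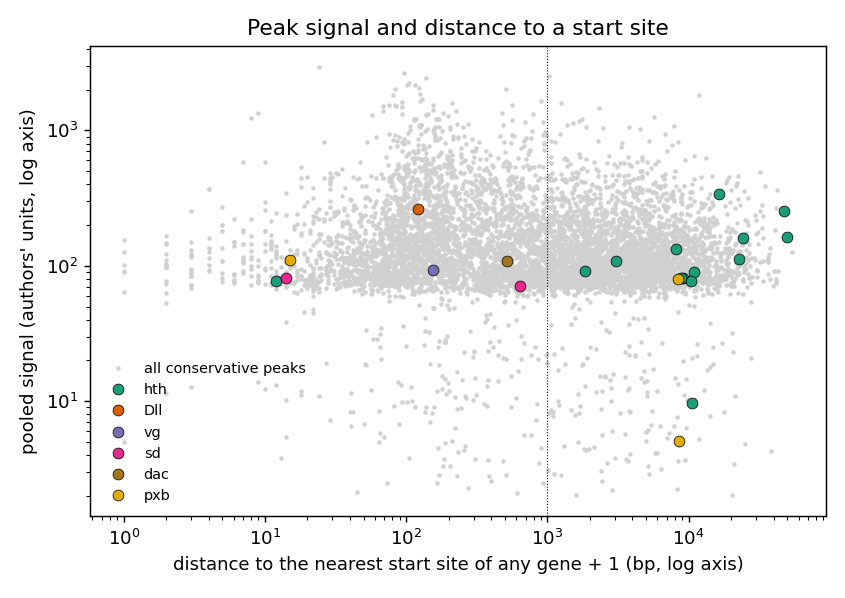
Pooled signal (vertical, log axis) against distance to the nearest start site of any gene plus 1 bp (horizontal, log axis) for all 6359 conservative peaks in grey and the 22 peaks of the named genes in colour. The dotted line marks 1 kb. Of the 22, 7 lie to its left, 1 of them at hth, and 8 hth peaks lie beyond 10 kb, an overlapping pair among them.

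Territory length bears on these counts. Among the 62 other protein-coding genes with a territory near that of hth in length (109 to 170 kb), the median number of conservative summits was 3 and 13 had none. One, CG1677 with 22, had more than hth, 2 had as many and 59 had fewer; CG1677 was singled out after its value was seen. The 5 genes nearest to hth in count were Glut4EF and CG46467, which overlap each other on 3R, with 14 each, mtgo and pyd with 12 each, and Eip75B with 11. Of the 192 peaks that the authors ranked at all in the hth territory, 14 (7.29%) were conservative, against 5.17% over the arms and a median of 2.10% in the genes of similar length. In replicate 1 alone, 8 of 140 ranked summits at hth passed, against 4549 of 103003 over the arms. In replicate 2 it was 9 of 191, against 5348 of 108491. The share at hth was thus above that over the arms in replicate 1 but not in replicate 2.

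**Figure D3:**
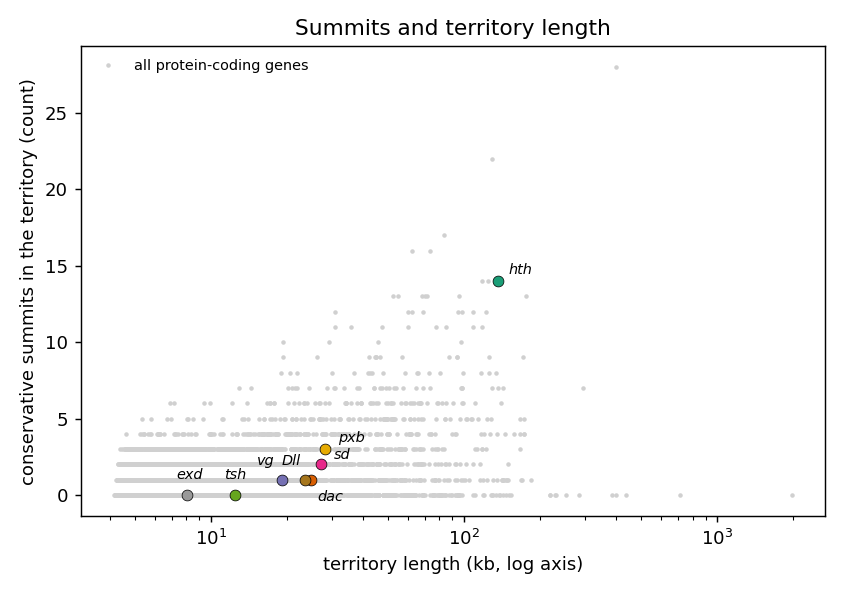
Conservative summits per territory (vertical) against territory length in kb (horizontal, log axis) for 13968 protein-coding genes in grey, with the 8 named genes in colour. At 136 kb and 14 summits hth stands near the top of its length range, while exd and tsh have 0.

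Of the 8 genes, 6 held a conservative summit, and exd and tsh held none. Over all protein-coding genes the share was 39.7%, and it rose with length. It was 33.5% for territories under 10 kb (exd), 57.8% from 10 to 20 kb (vg and tsh), 67.8% from 20 to 30 kb (Dll, sd, dac and pxb), 69.0% from 30 to 60 kb, 70.7% from 60 to 100 kb and 72.5% over 100 kb (hth). Set beside these shares, 6 of 8 is not called particular to these genes. The longer pooled list also gave 6 of 8, against 42.5% of all genes. The list of replicate 1 gave 3 of 8 (hth, Dll and pxb) against 32.4%, and that of replicate 2 gave 5 of 8, with sd and dac added, against 36.5%.

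**Figure D4:**
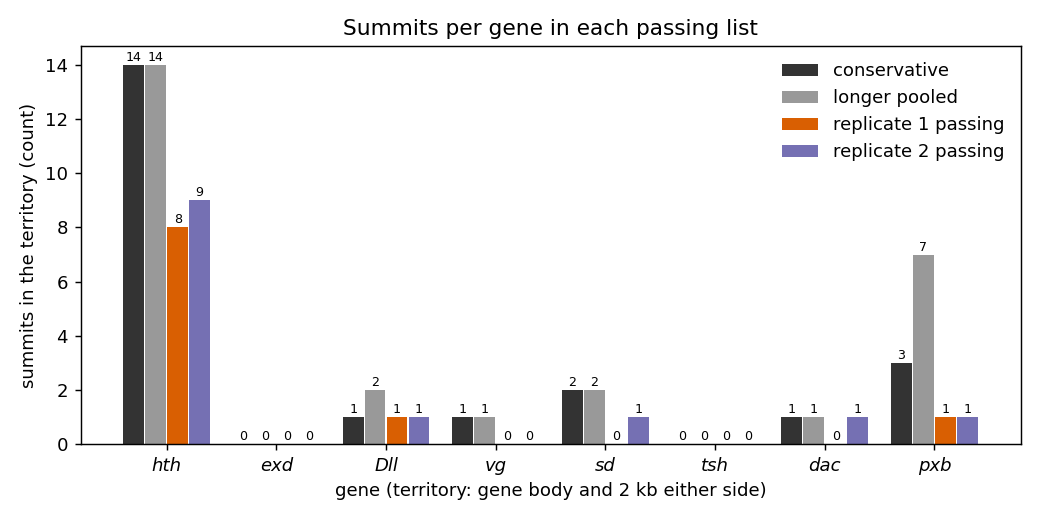
Number of summits in each gene's territory (vertical) in 4 passing lists: the conservative and longer pooled lists and the list of each replicate alone. The hth bars run from 8 to 14, the pxb bar rises to 7 in the longer list, and exd and tsh are at 0 in all 4.

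Of the 8 genes, 6 had a conservative summit within 1 kb of a start site of their own, against 25.6% of all protein-coding genes, a share not matched for length. These were the same 6 that held any summit, and no other gene's start lay within 1 kb of these summits. Over the 22 summits, 7 (31.8%, exact 95% interval 13.9 to 54.9%) were that close to any start, against 54.0% of all conservative summits. In the list of replicate 1 alone it was 2 of 10 summits. The low share came from hth, with 1 of 14, while the other 5 genes together had 6 of 8.

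Dll, the distal limb selector, had 1 conservative peak at 2R 24814621 to 24814774, with its summit 121 bp upstream of the single annotated start. It had 93.3 in replicate 1, 167.0 in replicate 2 and 264.6 pooled, which ranked 987 of 6359, and it passed in both replicates. Replicate 2 was the higher by 0.84 on the log2 scale, and 4.58% of all conservative peaks had a ratio of replicate 1 to replicate 2 that low or lower. The GC content around this summit was 67.3%, the highest of the 22, and its window is not printed here. A second site 987 bp upstream, with a signal of 68.5, was in the longer list alone. Its IDR was 0.156 in the ranking across replicates and 0.00783 in the other pooled ranking.

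For vg, the wing co-activator, the conservative peak at 2R 12884307 to 12884646 had a pooled signal of 92.3 and lay in the first exon, between the 2 annotated starts at 12884201 and 12884632. Its overlapping peak in the ranked list of replicate 2 had 52.5, and the ranked list of replicate 1 had no peak overlapping it. Neither replicate's passing list held it. The other 21 peaks had a ranked peak in both replicates, as did 99.3% of the conservative list. Of the 2 replicates' own ranked lists, only that of replicate 2 thus matched the vg peak. In the pooled ranking across replicates the peak had a −log10 IDR of 2.57 and a score of 1000.

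The TEAD gene sd had 2 conservative peaks, both in a 13.3 kb second intron of transcripts from the upstream start and both near internal starts. The summit at X 15812340 was 13 bp inside the start at 15812327, in the first exon of the 12 of 22 annotated transcripts that use it, and had 38.9 in replicate 1, 45.6 in replicate 2 and 81.6 pooled. The summit at X 15818792 was 641 bp inside the start at 15818151 and had 40.8, 34.5 and 71.35. The 2 replicates placed the first summit 69 bp apart and the second 12 bp apart. The first passed in replicate 2 and the second in neither. Both are among the 6 windows with a TCF core within 100 bp.

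In dac, which marks the intermediate leg and acts in eye formation, the peak at 2L 16486344 to 16486683 had its summit 516 bp upstream of the single start. It had 43.4 in replicate 1, 67.1 in replicate 2 and 109.0 pooled and passed in replicate 2 alone. GAGAG, the letters of the GAGA factor, occurred 7 times in this peak when overlapping matches are counted on both strands. Over the whole peak, 13 of the 22 held such a match (59.1%, exact 95% interval 36.4 to 79.3%), against 35.2% of all conservative peaks. More of the 22 had the full width of 340 bp (86.4% against 76.9%), so a larger share of them was searched over that width. Whether this bears on the difference was not tested. Within 50 bp of the summit 7 of 22 had a match (31.8%, interval 13.9 to 54.9%). The share of all conservative summits is not given here for that window, so this count is not read as high or low. The homeodomain form TAATTA was within 50 bp of 0 of the 22 summits and of 8.82% of all, and 3 of the 22 held it somewhere in the peak.

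At pxb the summit 14 bp inside its single start, at 3R 15666197, had 44.0 in replicate 1, 64.9 in replicate 2 and 110.5 pooled, and passed in both. A second site in intron 2, with summits at 15676329 (79.85) and 15676556 (5.04), consisted of 2 overlapping peaks that met the same replicate peaks of 36.9 and 47.0, and it passed in neither replicate. The longer list added 4 peaks at pxb in 2 overlapping pairs, one of 74.6 and 2.3 with summits 4480 and 4696 bp inside the start, and one of 66.5 and 19.2 with summits 1026 and 1230 bp inside it.

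No conservative summit lay at tsh, but a ranked one came close. The gene lies at 2L 21828593 to 21837011, and the ranked summit, at 21828654, was 61 bp inside its start and had a pooled signal of 74.0 and a score of 823, where the lowest score in the conservative list was 830. Its IDR across replicates was 0.0104. Replicate 1 had 29.8 there, with an IDR of 0.794, and replicate 2 had 39.4, with an IDR of 0.0341. The signal was above the 71.35 of the weaker sd peak, which is in the conservative list.

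The Pbx gene exd lies at X 15992468 to 15996509. Its territory held 0 peaks in both pooled rankings and in the ranked list of replicate 1, and 10 in that of replicate 2, the strongest at 29.0 with an IDR of 0.358. In replicate 1 a stretch of 40954 bp around exd held no ranked peak, where neighbouring ranked summits are usually 746 bp apart (median); 130 of 102813 spacings were that long. The stretch without a ranked peak was 36912 bp in the pooled ranking across replicates and 11471 bp in the other pooled ranking. Replicate 2 did rank peaks there, and none passed. What the count of 0 says about binding at exd was not tested.

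Across replicates, 7 of the 22 peaks (31.8%, exact 95% interval 13.9 to 54.9%) were in both passing lists and 8 (36.4%) in neither, against 53.0% and 20.9% of all conservative peaks. The signals of the named genes were lower, with a median of 91.6 against 120.0, and 6 of 22 were in the upper 50% of the list, 5 at hth and the Dll peak. All 6 of those were in both passing lists, as were 91.3% of the upper 50% overall. Across the 21 peaks with a value in both replicates, Spearman's rho of the signals was 0.50, and over 6314 conservative peaks it was 0.75. This is a description across peaks that share libraries, and 4 of the 21 form overlapping pairs. The summits of the 2 replicates were 2 to 100 bp apart at these 21 peaks, with a median of 23.0 bp, and the median over all was 26.0 bp.

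**Figure D5:**
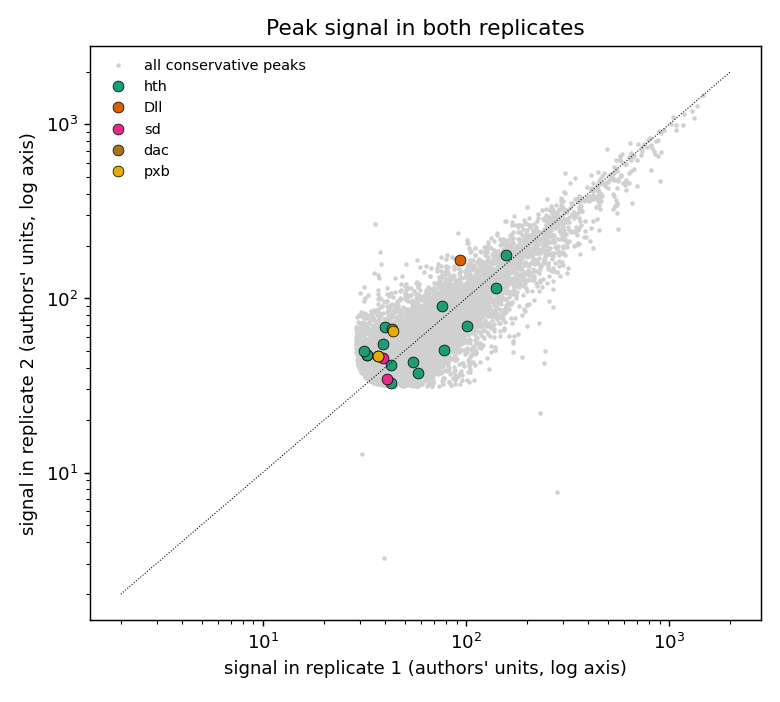
Signal of the overlapping peak in the ranked list of replicate 2 (vertical) and replicate 1 (horizontal), both log axes, for 6314 conservative peaks in grey and the named genes in colour; the dotted line marks equal values. The Dll peak lies above the line at 93.3 and 167.0, and the strongest hth peak lies near it at 157.2 and 178.6; vg has no replicate 1 value and is not drawn.

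Other genes of the same fields were counted beside these. Of 39 regulators of leg and antenna, wing and notum, and eye fields or of the TALE homeobox class, each gene counted once, 17 held a conservative summit and 22 did not, where the share of all protein-coding genes was 39.7%. By territory length, 5 of 10 under 10 kb held one (33.5% of all genes of that length), 3 of 14 from 10 to 20 kb (57.8%), 4 of 7 from 20 to 30 kb (67.8%), 3 of 6 from 30 to 60 kb (69.0%) and 2 of 2 from 60 to 100 kb (70.7%). The shares from 10 to 60 kb were thus below those of all genes of like length, and no test was made. Among the leg and antenna genes 7 of 17 did: the homeobox gene Lim1 (5 summits, strongest 140.9 pooled, 69.8 and 71.4 in replicates 1 and 2), the BTB genes bab1 (7, strongest 139.1, from 66.7 and 58.3) and bab2 (5, strongest 135.7, from 81.8 and 51.0), then noc, elB, B-H1 and ss. Among the wing and notum genes 5 of 14 did. The T-box gene bi was strongest, at 192.2 (95.1 and 97.2), 19119 bp from its own start. The Hippo pathway co-activator gene yki, whose protein binds Sd, followed at 141.7 (79.4 in replicate 2, the lower replicate), 407 bp from its own start and 135 bp from that of Gpat4, and then came knrl at 131.4 (57.9 and 73.3), mirr and caup.

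Among the eye genes 4 of 10 had a summit. That of the Pax6 gene ey, 164 bp from its start, had 142.8 in replicate 1, 232.7 in replicate 2 and 386.4 pooled, above every peak of the 8 genes. Those of eyg (95.2) and so (82.6) lay 205 and 68 bp from their starts, and the fourth gene was Optix. The paralog of tsh, tio, held none. Of the other TALE homeobox genes 3 of 5 had a summit: vis, whose peak of 106.6 lay 684 bp from the start of fdl and 3966 bp from its own, mirr (99.99) and caup (76.35). The TALE genes ara and achi had none.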

How the data were processed

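ChIP-seq peak lists on dm6, per the labels, were deposited for each replicate and for the pooled replicates. As the files are named, these are a ranked list and one thresholded by IDR (irreproducible discovery rate), with a conservative pooled list. Each peak carried the authors' deposited score (in ranked lists a rescaled IDR, capped), signal value and −log10 q, and ranked lists a −log10 IDR. Aligner, peak caller and signal scale are not given in the sources used here. Depth is unknown, and exact intervals cover counting error only. Signal values served for description, for order within a list and for ratios between the 2 replicates. No adjustment for depth was made in those ratios.

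Summits on the main chromosome arms (7 peaks elsewhere were left out) were assigned to genes of Ensembl release 115 (BDGP6, the same assembly). Start sites of transposable elements were left out. Replicate values are those of the ranked peak sharing most bases, and passing lists were matched by overlap of 50% of the shorter peak. Motifs were sought within 50 bp of summits on both strands, with wider windows or whole peaks used where stated. The genes, lists and motifs were chosen with earlier results of these data known. All 8 genes were named, with the 3 strongest of each other list and the 5 genes nearest hth in count among genes of similar length. With 1 group and 2 replicates no test between conditions was possible, and none was made between peak sets. Scripts (Python 3.11.15, pandas 2.3.3, scipy 1.17.1) were tested on simulated data. Alternatives covered lists, territories, windows and overlap rules.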

Additional observations from a re-analysis of the deposited data

How the results depend on the processing

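Counts followed the list. In the longer pooled list the 7 genes other than hth held 13 summits in place of 8, while hth held 14 in both. At hth the longer list lacked the overlapping peak of 9.75, which is not an independent site, and added the site at 10520722. Leaving out a replicate means that the other replicate's passing list, thresholded within that replicate, stood in for the pooled list. With these lists there were 10 to 13 summits in all, 8 to 9 at hth, 2 to 4 at the other 7 genes and 3 to 5 genes with any. Of ranked peaks, 3.87% (13 of 336, replicate 2) and 3.92% (10 of 255, replicate 1) passed, in place of 6.57%. Over the arms 5348 of 108491 and 4549 of 103003 passed. The members were thus below the arms in each replicate, but above them in the pooled list (5.17% over the arms). In the upper 50% by signal there were 6 summits, 5 at hth and 1 elsewhere, in 2 genes, with a TCF core within 50 bp of 0% of them and 100% in both replicates' lists. The longer TCF form gave 0%. The cause was not tested. With the gene body alone, Dll and dac had no summit and 4 genes did. With 5 kb either side vg had 2 summits. Shares from few peaks moved too, though within the main value's counting interval. That of summits with a TCF core was 4.55% within 25 bp, 27.3% within 100 bp, 23.1% (3 of 13) without replicate 1 and 1 of 10 without replicate 2, in place of 13.6%. That of summits within 1 kb of a start was 38.5% (5 of 13) without replicate 1, 2 of 10 without replicate 2 and 16.7% in the upper 50%, in place of 31.8%. No paired analysis was possible because there was 1 group. Depth, not known here, limits what the weak peaks show.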

Other observations

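Replicate 2 gave the higher signal at 5 of the 6 summits near a start that had a value in both replicates (the hth downstream start, Dll, the sd start at 15812327, dac and pxb), with a median log2 ratio of replicate 1 to replicate 2 of −0.59. Among the 15 more distant summits of the same genes it was higher at 8, and over 3403 conservative summits within 1 kb of a start it was higher at 1760. Of those 15, 4 form overlapping pairs that share the same replicate peaks, and replicate 2 was higher at all 4, so the 8 counts some sites more than once. The pattern near starts was noticed after the values were seen and was not tested. Overlapping weak peaks beside stronger ones made up 2 of the 22, at 9.75 and 5.04, and 202 of 6359 conservative peaks had a signal under 20.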
